A study of Mus musculus with 4 samples.

Results

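The Id genes Id1, Id2, Id3 and Id4 and the E protein genes Tcf3, Tcf4 and Tcf12 were taken as listed, and every probe set annotated to 1 of these symbols only was read. Each of the 7 genes had 1 such probe set, out of 19938 genes named on the array. Expression was measured on Affymetrix arrays, 1 per sample, in type 2 conventional dendritic cells (cDC2) sorted from mouse spleen. The WT group (n = 2) came from Zbtb46-GFP chimeric mice, whose reporter makes cells green where the Zbtb46 gene is active. Zbtb46 encodes a zinc-finger factor typical of conventional dendritic cells. The group labelled Id2 KO (n = 2) came from Id2 KO chimeric mice with the same reporter. Age, strain, the deleted part of Id2, the origin of the Id2 KO cells and the share of host cells left in the chimeras were not given in the sources used here, and the design text names bone marrow in 1 place where every sample label names spleen. No source states whether a replicate is a separate mouse, so the spread behind each p-value is that between samples and may be technical.

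E proteins are basic helix-loop-helix transcription factors that pair with each other and bind short DNA motifs called E boxes. Id proteins have the helix-loop-helix but no basic region, so an E protein paired with an Id protein does not bind DNA. Tcf4 is the E protein gene that plasmacytoid dendritic cells (pDC) depend on, Tcf3 and Tcf12 (HEB) are best known from B and T cell development, and Id2 is expressed in conventional dendritic cells and is needed above all by the type 1 subset (cDC1). The balance of Id over E protein, and whether another Id gene is higher or an E protein gene lower where Id2 is deleted, is therefore the question that the 7 genes address here.

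The E box is written CANNTG and reads the same on both strands. The 250 bases before the start of Id2 are shown because Id2 is the gene named in the label, with the E box in capitals (RefSeq, GRCm38.p6, chr12:25096093-25096342, minus strand, 5′ to 3′).
Id2: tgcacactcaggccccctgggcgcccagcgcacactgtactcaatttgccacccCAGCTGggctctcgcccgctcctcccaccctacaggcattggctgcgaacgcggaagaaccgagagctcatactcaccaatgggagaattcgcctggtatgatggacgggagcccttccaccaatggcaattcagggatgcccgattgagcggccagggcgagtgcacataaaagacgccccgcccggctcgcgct
This window held 1 E box, CAGCTG, which began 196 bases before the start. CANNTG was found in 66.2% of 32851 promoter windows of the same length and CAGCTG, which is part of CANNTG, in 13% of them. Of the 7 genes, 5 had windows in the table, 7 windows in all. The windows of Id3 and Id4 held no CANNTG, that of Tcf3 held 1, and of the 3 windows of Tcf12, 2 held 1 each. A match is a description of the letters, not of binding.

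The arrays were alike in scale, with median intensities from 128 to 134, and correlations of log2 intensity over all probe sets lay between 0.990 and 0.997 for every pair of arrays. Genes with a mean log2 intensity above the 40th percentile of all genes (6.77) were tested with limma over 11963 genes, and a gene was called changed at a Benjamini-Hochberg adjusted p below 0.05. Of the cDC2 markers, Itgax (-0.01), Flt3 (0.11), Sirpa (-0.23) and H2-Ab1 (-0.03) were present in both groups and did not pass, while Zbtb46 (-1.02, with its mean in the group labelled Id2 KO below the filter level), Itgam and Cd4 were lower and Esam (0.53) was higher. All 9 tested neutrophil markers were lower in the arrays labelled Id2 KO (median -3.24, summed intensity 17065 to 17613 in WT and 1229 to 2150 in the group labelled Id2 KO). Cxcr2 and Mmp8 had means below the filter level in the group labelled Id2 KO and were tested through the WT arrays. Without them the count was 7 of 7, where 2.52% of all tested genes were lower. The sex-linked genes Xist (-5.28) and Kdm5d (2.66) divided the 4 arrays just as the labels did, so that sex-linked expression and genotype cannot be told apart. Xist in the group labelled Id2 KO (6.67) and Kdm5d in WT (5.63) had means below the filter level. Each was tested through the arrays where it was high, so the sizes of their differences are uncertain.

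No Id or E protein gene passed the test for a difference between the groups. Of the 7 genes, Id2, Tcf3, Tcf4 and Tcf12 were tested and 0 were called, against 8.04% of all tested genes. At an unadjusted p below 0.05 the count was 1, Id2, against 20.7% of all tested genes. A linear model without moderation of the spread also gave 0 calls, and 1 gene, Tcf4, before adjustment, against 12.7% of all tested genes. Id1, Id3 and Id4 lay below the filter level on every array, and their values come from the fit over all 19938 genes, in which 4.17% were called.

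**Figure D1:**
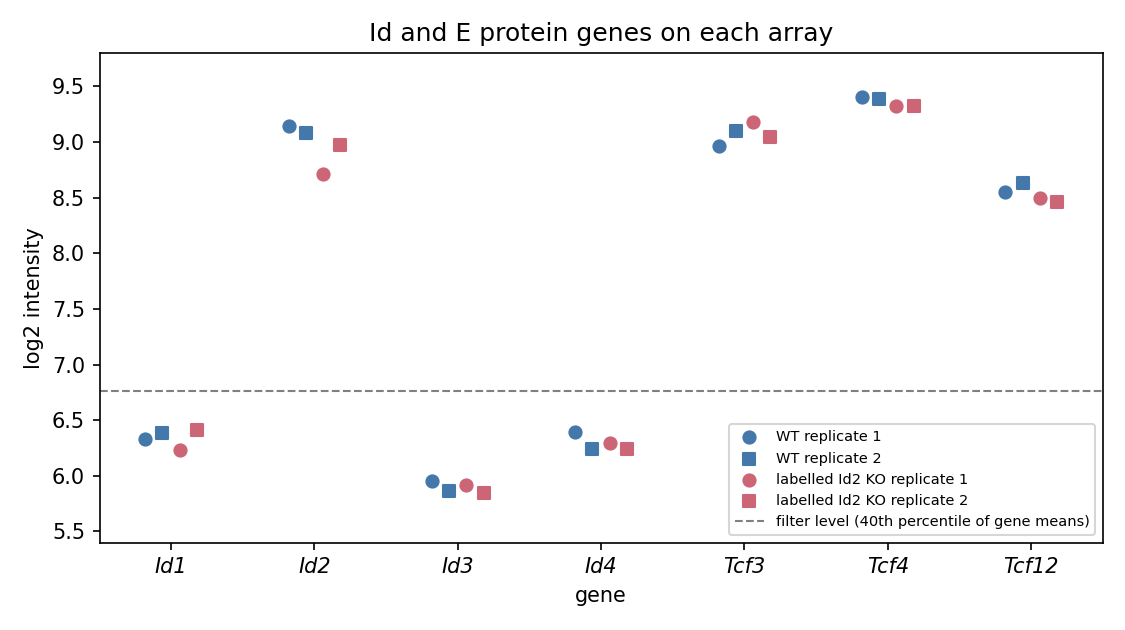
The log2 intensity of each Id and E protein gene is plotted for each of the 4 arrays, blue for WT and red for the arrays labelled Id2 KO, with circles for replicate 1 and squares for replicate 2. Id1, Id3 and Id4 lie under the dashed filter level of 6.77 on all 4 arrays, and Id2 is lowest on replicate 1 of the group labelled Id2 KO, at 8.71.

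Id2 itself, read first as the check of the labels, was only moderately lower in the group labelled Id2 KO. WT replicates 1 and 2 had intensities of 564 and 541 and those labelled Id2 KO had 419 and 503, or in the same order 9.14, 9.08, 8.71 and 8.97 on the log2 scale. Both arrays labelled Id2 KO lay below both WT arrays, with replicate 1 farther below than replicate 2. The difference was -0.27 on the log2 scale (95% interval -0.50 to -0.04, SE 0.10, n = 2 each), that is 16.9% lower, and it did not pass (limma, adjusted p = 0.172). Of all tested genes, 13.8% had a larger difference in either direction. Leaving out replicate 2 of the group labelled Id2 KO gave -0.40, which passed (limma, adjusted p = 0.0343), and leaving out its replicate 1 gave -0.14 (adjusted p = 0.629, the highest when an array was left out). The mean Id2 signal of the group labelled Id2 KO thus lay 2.08 above the filter level on the log2 scale. The single probe set may lie outside the deleted part, in which case it does not check the labels, and fewer cells with Id2 RNA and less of it per cell cannot be told apart in bulk samples. The group is called by its label throughout, and every direction rests on it.

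Other cell types are known for high Id2, and their markers are given beside this value. Over all tested genes 5.53% were higher and 2.52% lower. In cDC1, 1 of 5 tested markers was lower and none higher, namely Tlr3 (-0.73), and the summed intensity of the 8 measured markers was 2590 to 2603 in WT and 2410 to 2532 in the group labelled Id2 KO. The defining cDC1 genes Xcr1 and Clec9a lay below the filter level in the mean. In the fit without a filter they differed by -0.33 and -0.41 and did not pass (limma, adjusted p = 0.0736 and 0.0634). Their groups did not overlap, which held in either direction for 44.2% of all genes. Among the tested cDC1 markers, Itgae (0.06) and Batf3 (0.05) pointed the other way and did not pass. In natural killer cells, Prf1 was the single tested marker of 7 and did not pass (-0.02, adjusted p = 0.929), and the other 6 lay below the filter level. Markers of further cell types were lower in the same arrays. They were 3 of 4 tested monocyte markers (median -0.80, summed intensity 2888 to 3044 in WT and 2202 to 2409 in the group labelled Id2 KO), 6 of 8 tested red pulp macrophage markers (median -0.87, 1842 to 2369 and 1268 to 1277) and 3 of 4 tested erythroid markers (median -0.80, 1328 to 1605 and 783 to 850). Chil3, Slc40a1 and Epb42 had means below the filter level in the group labelled Id2 KO and were tested through the WT arrays. Without them the counts were 2 of 3 for monocytes, 5 of 7 for red pulp macrophages and 2 of 3 for erythroid cells. Of 7 tested T cell markers, 1 was lower, Cd3d (-0.43), and none higher. The part of these cells in the Id2 difference, and in the lower values of Acvrl1, Smad3 and Lyl1 given later, was not tested.

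The other Id genes were not higher in the arrays labelled Id2 KO. Id1, a target of BMP signalling, was at 6.33 and 6.39 in WT and at 6.23 and 6.41 in the group labelled Id2 KO. Those values overlapped, and the difference was -0.04 (95% interval -0.25 to 0.17, adjusted p = 0.910 over all genes without a filter). Id3, which lymphocytes induce on receptor signalling, was at 5.96 and 5.86 in WT and at 5.92 and 5.85 in the group labelled Id2 KO. The groups overlapped here too, with a difference of -0.03 (-0.22 to 0.17, limma adjusted p = 0.940). Id4, best known from neural and germ cells, was at 6.39 and 6.24 in WT and at 6.30 and 6.25 in the group labelled Id2 KO, also with overlap and with a difference of -0.04 (-0.25 to 0.17, limma adjusted p = 0.899). The upper ends of these intervals correspond to 12.8% higher for Id1, 12.7% for Id3 and 12.1% for Id4. None of the 3 had groups apart from each other, whereas 44.2% of all 19938 genes did. The signs of these 3 small differences turned with 1 array left out (Id1, Id3 and Id4) or with quantile normalization (Id3). No background was measured beside these dim probe sets, and a signal made up partly of background understates a fold change, so the intervals bound the measured intensity and not the transcript.

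The E protein genes differed by less than Id2 did, and none passed. Tcf3 was at 8.96 and 9.10 in WT and at 9.18 and 9.04 in the group labelled Id2 KO. These values overlapped, with a difference of 0.08 (95% interval -0.12 to 0.29, limma adjusted p = 0.677). Tcf4 was at 9.40 and 9.38 in WT and at 9.32 on both arrays labelled Id2 KO. The groups did not overlap, and the arrays of each group lay within 0.02 of each other, but the difference of -0.07 (-0.25 to 0.11) did not pass (limma, adjusted p = 0.686). Tcf12 was at 8.55 and 8.63 in WT and at 8.50 and 8.46 in the group labelled Id2 KO. The groups did not overlap, and the difference of -0.11 (-0.30 to 0.07) did not pass either (limma, adjusted p = 0.497). The lower ends of the intervals correspond to 8.12% lower for Tcf3, 15.8% lower for Tcf4 and 18.6% lower for Tcf12. Id2, Tcf4 and Tcf12 thus lay lower without overlap, 3 of the 4 tested genes, where 22.8% of all tested genes did so. The median difference of the 4 was -0.09, against 0.01 for all tested genes.

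**Figure D2:**
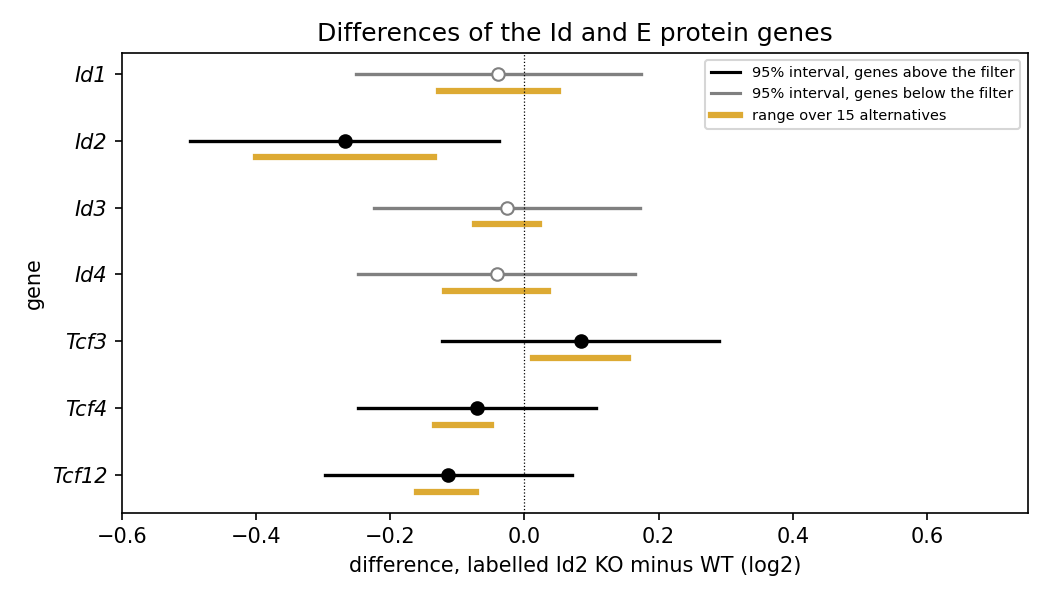
The difference of each gene between the arrays labelled Id2 KO and WT is plotted on the log2 scale with its 95% interval, filled for the 4 genes above the filter and open for the 3 below it. The yellow bars span the 15 alternative settings. The interval of Id2 alone lies on 1 side of 0, from -0.50 to -0.04, and the yellow bars of Id1, Id3 and Id4 cross 0.

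Cells of other types that are known to express E proteins were also measured through their markers. Over all tested genes 5.53% were higher and 2.52% lower. In the group labelled Id2 KO all 7 tested B cell markers were higher (median 1.27), with a summed intensity over 8 markers of 1046 to 1052 in WT and 2305 to 2651 in the group labelled Id2 KO. Cr2 and Fcer2a had WT means below the filter level and were tested through the arrays where they were high, and without them the count was 5 of 5. Of 8 tested pDC markers 3 were higher and none lower, namely Ly6d (1.31), Siglech (0.56) and Pacsin1 (0.34). The other 5 did not pass and lay on both sides of 0: Tlr9 (0.21), Bst2 (0.04), Lair1 (-0.06), Cox6a2 (-0.11) and Ccr9 (-0.16). The summed intensity of all 8 was 4230 to 4287 in WT and 4751 to 4785 in the group labelled Id2 KO. The part of these cells in the Tcf3, Tcf4 and Tcf12 values was not tested.

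Since the brightness of different probe sets cannot be compared, the level of an Id gene relative to an E protein gene was read only as the change of their log2 ratio within an array. Of the 12 pairs of an Id and an E protein gene, 2 had ratios that were lower without overlap in the arrays labelled Id2 KO, 0 were higher without overlap and 10 overlapped. Id2 over Tcf3 was 0.18 and -0.02 in WT and -0.47 and -0.07 in the group labelled Id2 KO, a change of -0.35. The nearest arrays of the groups were 0.05 apart, which is less than the 0.41 between the replicates labelled Id2 KO. Id2 over Tcf4 was -0.26 and -0.30 in WT and -0.61 and -0.35 in the group labelled Id2 KO, a change of -0.20 with a gap of 0.04 between the groups. Id2 over Tcf12 was 0.59 and 0.45 in WT and 0.21 and 0.52 in the group labelled Id2 KO, which overlapped, with a change of -0.15. The exact permutation test (two-sided) gave p = 0.333 for the pairs without overlap, the smallest that 2 against 2 arrays allow. Against each of the other 11962 tested genes, the ratio of Id2 was lower without overlap for 72.6%, so 2 of 3 E protein genes is close to that background.

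The ratios of the other Id genes moved less. Over Tcf3, the changes were -0.12 for Id1, -0.11 for Id3 and -0.13 for Id4, over Tcf4 they were 0.03, 0.04 and 0.03, and over Tcf12 they were 0.07, 0.09 and 0.07. All 9 overlapped between the groups with the values as deposited. Against each tested gene, the ratio lay apart in either direction for 36.3% of genes with Id1, 43.4% with Id3 and 38.9% with Id4. This depended on the scaling. After quantile normalization 5 of the 9 pairs were higher without overlap in the arrays labelled Id2 KO and none lower, namely Id1 over Tcf12 (0.16), Id3 over Tcf4 (0.14) and Tcf12 (0.17), and Id4 over Tcf4 (0.13) and Tcf12 (0.16), while Id1 over Tcf4 (0.13) overlapped. In those pairs Id1, Id3 and Id4 themselves differed by -0.00, 0.01 and -0.00, and Tcf4 and Tcf12 by -0.13 and -0.16. With that scaling, the ratio over each tested gene was higher without overlap for 19.6% of genes with Id1, 25% with Id3 and 22.6% with Id4. The balance of Id1, Id3 and Id4 over Tcf4 and Tcf12 is therefore not settled by these arrays.

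**Figure D3:**
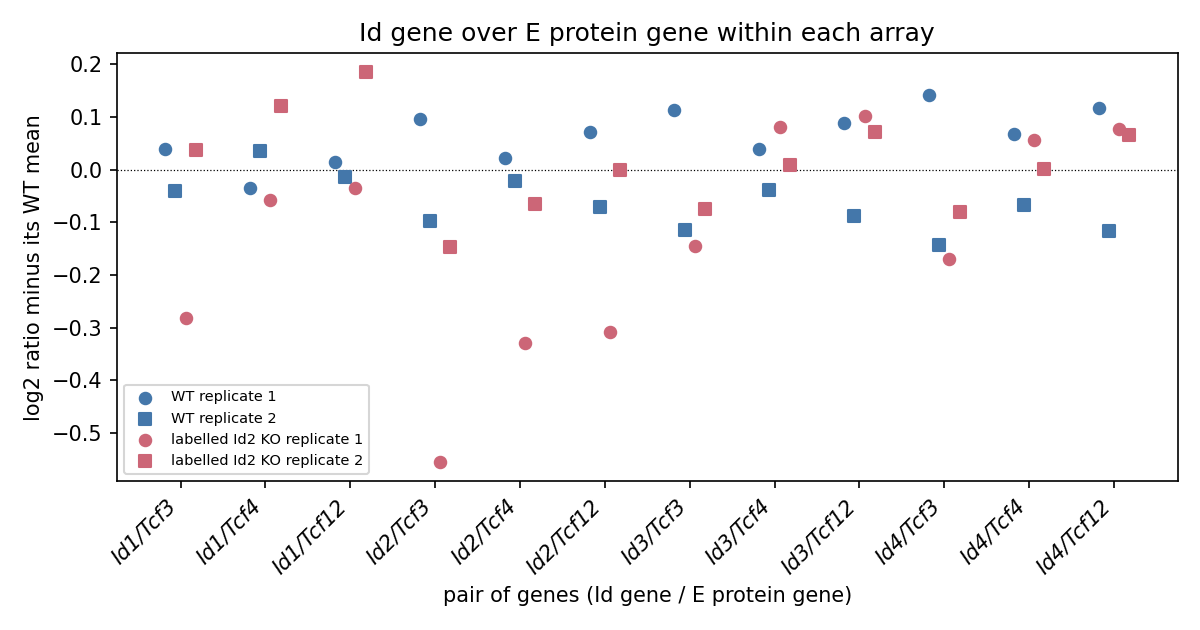
The log2 ratio of each Id gene over each E protein gene is plotted per array after subtracting the pair's WT mean, blue for WT and red for the arrays labelled Id2 KO, with circles for replicate 1 and squares for replicate 2. Replicate 1 of the group labelled Id2 KO lies lowest for the 3 Id2 pairs, whereas its replicate 2 lies near the WT arrays.

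Within each family, the ratios followed the single genes. Id1 over Id2 was higher without overlap in the arrays labelled Id2 KO (change 0.23), and Id2 was lower without overlap over Id3 (-0.24) and Id4 (-0.23), pairs in which Id2 was the gene with the larger difference. The ratio of Id2 was lower without overlap over 72.6% of all other tested genes. Tcf3 over Tcf12 was 0.41 and 0.46 in WT and 0.68 and 0.58 in the group labelled Id2 KO (change 0.20), and Tcf3 over Tcf4 was -0.44 and -0.29 in WT and -0.14 and -0.28 in the group labelled Id2 KO (change 0.15). Both were without overlap, where the ratio of Tcf3 was higher without overlap over 28.5% of all other tested genes. For Tcf3 over Tcf4 the nearest arrays were at -0.288 in WT and -0.280 in the group labelled Id2 KO. They lay closer than the replicates of either group. Tcf4 over Tcf12 overlapped (change 0.04).

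The tested genes whose 4 array values, centred on their mean, lay nearest to those of Id2 were Adam22, a catalytically inactive ADAM family member, Slc6a3, the dopamine transporter gene, and Klf5, a Krüppel-like factor gene. Their root mean square distances from Id2 over the 4 arrays were 0.0116, 0.0147 and 0.0160 on the log2 scale. Their differences were -0.27, -0.28 and -0.28, and none passed (limma, adjusted p from 0.156 to 0.185). These genes were picked as the nearest of all tested genes on 4 values each. Whether such distances are unusual was not tested.

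Genes around the Id and E proteins were read from 5 lists with 75 genes, of which 63 were tested. Of these, 14 were higher, 3 lower and 46 did not pass. Over all tested genes, 5.53% were higher and 2.52% lower. The median difference of the 63 was 0.02.

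Among 12 tested partners and cofactors of E proteins, 1 was higher and none lower. That is 8.33% called, close to the 8.04% of all tested genes. Cbfa2t3, a corepressor of the ETO family that binds E proteins and acts with Tcf4 in pDC, was at 10.08 and 9.91 in WT and at 10.40 and 10.43 in the group labelled Id2 KO. Both arrays labelled Id2 KO lay above both WT arrays, a rise of 0.42 (limma, adjusted p = 0.0192) whose call was lost without WT replicate 2. With the mean of the Cbfa2t3 probe sets in place of the brightest, the rise was 0.33 (limma, adjusted p = 0.0384). The coactivator genes Ep300 (0.01) and Crebbp (-0.00), and Ldb1 (0.00), which bridges complexes of E proteins, did not pass. Lyl1, a helix-loop-helix partner of E proteins, did not pass either, at -0.31 (limma, adjusted p = 0.0635).

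Where 5.53% of all tested genes were higher, 3 of 7 tested genes that act on the stability of Id or E proteins were higher and none lower. They were Skp2, a ubiquitin ligase subunit (0.54, adjusted p = 0.00656), Fzr1, an activator of the anaphase-promoting complex that targets Id2 (0.52, adjusted p = 0.0215), and Usp1, which removes ubiquitin from Id proteins in human cells (0.47, adjusted p = 0.00707). Usp1 lay at 6.79 and 6.84 in WT, next to the filter level, so the size of its rise is uncertain. The calls of all 3 were lost without WT replicate 1, and that of Fzr1 also without replicate 1 of the group labelled Id2 KO. Skp2, Fzr1 and Usp1 also act in the cell cycle. All 12 tested cell cycle genes were higher in the same arrays (median 1.40), with a summed intensity of 4836 to 4964 in WT and 10682 to 13732 in the group labelled Id2 KO, and their part in these 3 rises was not tested.

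Genes that lead to Id gene transcription mostly did not pass. Over all tested genes 2.52% were lower. Of 13 tested genes of the BMP and TGF-β route, Acvrl1, a BMP receptor gene, fell from 8.60 ± 0.04 to 8.17 ± 0.03 (SD, n = 2 each; limma, adjusted p = 0.0117), and Smad3, a TGF-β signal transducer, fell from 8.21 ± 0.02 to 7.81 ± 0.13 (limma, adjusted p = 0.0274). Both calls were lost without either WT replicate, and that of Smad3 also without replicate 2 of the group labelled Id2 KO and with no filter (limma, adjusted p = 0.0514, in a range up to 0.393). Smad1 (-0.02) and Smad5 (-0.02), which carry BMP signals to the Id genes, did not pass. Of the 10 tested transcription factors that act upstream of Id2 or beside it in dendritic cells, 0 passed (limma). The largest differences were those of Cebpb (-0.26, adjusted p = 0.0995) and Nfil3 (0.18, adjusted p = 0.479), whose sign turned (-0.01) without replicate 1 of the group labelled Id2 KO. Zeb2, which represses Id2 in the cDC1 lineage, differed by 0.04 (95% interval -0.14 to 0.22).

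Targets of E proteins known from lymphocytes and pDC were higher in part. Of 21 tested genes, 10 rose, 1 fell and 10 did not pass, where 5.53% of all tested genes were higher and 2.52% lower. Blnk, Gfi1 and Vpreb1 had 1 group mean below the filter level, Blnk in WT, so that it entered the test through the arrays where it was high. Without these 3, a choice made after seeing the data, 9 of 18 rose and 1 fell. Ly6d, a marker of lymphoid and pDC progenitors, was at 7.25 and 6.83 in WT and at 8.45 and 8.25 in the group labelled Id2 KO (1.31, limma, adjusted p = 4.46e-04). Spib, a transcription factor gene of pDC and B cells, was at 7.12 and 7.06 in WT and at 8.03 and 8.30 in the group labelled Id2 KO (1.07, limma, adjusted p = 3.12e-04). Both were apart between the groups by more than the replicates of either group. The B lineage genes Cd79a (1.27), Pax5 (1.27), Blnk (2.30-fold) and Pou2af1 (0.59) rose, as did the adaptor gene Lax1 (0.83), the pDC lectin gene Siglech (0.56), the interleukin 7 receptor gene Il7r (0.49) and the cell cycle kinase gene Cdk6 (0.39). Cd4, a coreceptor gene that cDC2 also carry, fell from 10.29 ± 0.01 to 9.45 ± 0.28 (SD, n = 2 each; limma, adjusted p = 0.00323).

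The targets that did not pass included Notch1 (0.06), the pre-T cell receptor gene Ptcra (-0.08), the surrogate light chain genes Igll1 (0.02) and Vpreb1 (-0.16), Foxo1 (-0.12) and the pDC genes Irf7 (-0.31) and Tlr9 (0.21). Below the filter level were Rag1 and Rag2, which encode the recombinase, and Ebf1, a B lineage regulator that was at 5.51 and 5.74 in WT and at 7.39 and 7.30 in the group labelled Id2 KO. Ebf1, Cd79a and Pax5 are also in the B cell marker list and Ly6d and Siglech in that of pDC. Of the 15 tested targets outside the lists of B cell, pDC and cDC2 markers, 6 were higher and none lower (5 and none of the 12 with both group means above the filter level), and of the 6, Blnk, Spib and Pou2af1 are also expressed by B cells. The B cell markers and the cell cycle genes rose in the same arrays (above). Their part in the target genes, Lax1, Il7r and Cdk6 included, was not tested. The calls of Il7r and Cdk6 were lost without WT replicate 1, that of Il7r also without replicate 2 of the group labelled Id2 KO and with no filter (limma, adjusted p = 0.0534, in a range up to 0.464), and those of Cdk6 and Siglech without WT replicate 2. The WT mean of Blnk was 6.35, so the size of its rise is not settled.

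**Figure D4:**
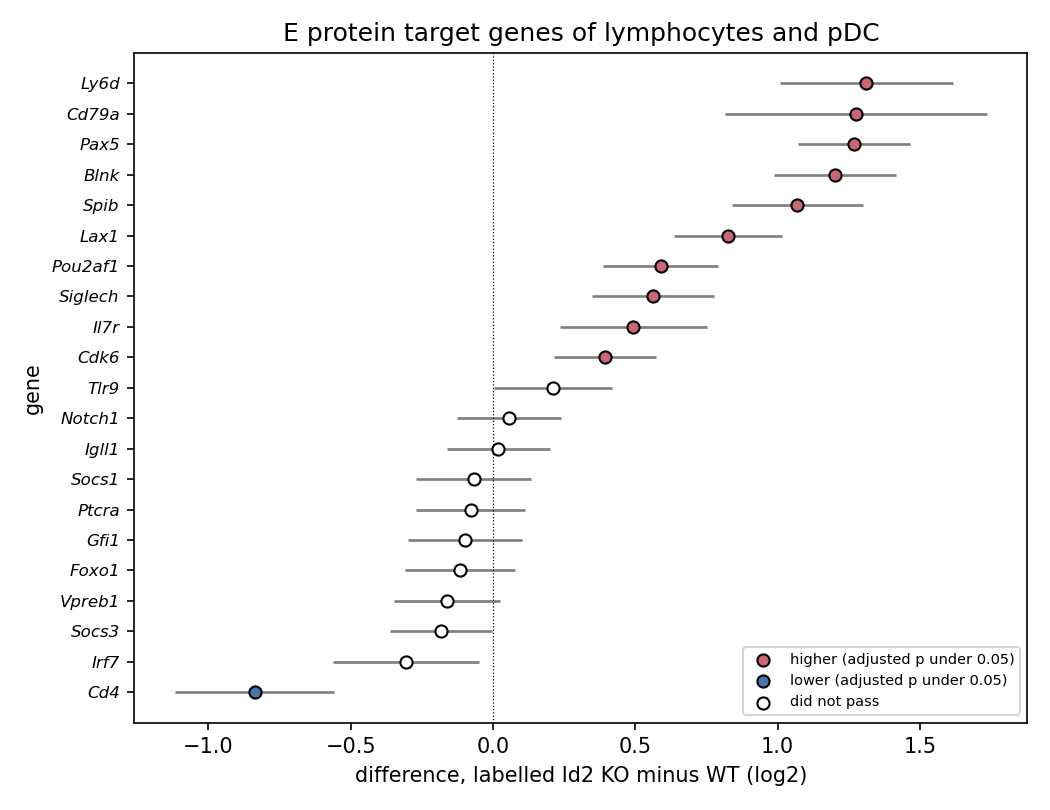
The difference between the arrays labelled Id2 KO and WT is plotted on the log2 scale for the 21 tested E protein target genes, with 95% intervals, red for higher, blue for lower and white for genes that did not pass. The 10 red genes reach from Cdk6 at 0.39 to Ly6d at 1.31, and Cd4 at -0.84 is the single gene that fell.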

How the data were processed

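Total RNA of sorted splenic cDC2 was amplified and hybridised to Affymetrix arrays, 1 per sample. The deposited table holds, for every probe set and array, an intensity on a linear scale. The authors used Affymetrix Expression Console and RMA, per the submitters' processing notes, which give no version, and the return to a linear scale is read from the values. The log2 was taken with no pseudocount. Of 28853 probe sets, 21789 had 1 gene symbol in the platform's annotation and were named, 1621 had several and 5443 were not listed. For a gene with several, the brightest was used. Differences are Id2 KO minus WT from limma 3.58.1 in R 4.3.3 (2 residual degrees of freedom, 6.77 added by moderation), two-sided, with 95% intervals not adjusted for the number of genes, and adjusted p-values are limma's. The procedure was also run on simulated data drawn from the spread that limma fitted. That run cannot check the fitted spread, and no conclusion rests on it. Precision is limited by the number of arrays.

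The 7 genes, the lists and the rule for named genes were chosen with earlier results of these data known. All 7 genes are named, with the list members past the threshold, or the 2 with the largest difference where none passed, and others added after their values were seen (such as Lyl1, Zeb2 and the targets that did not pass). List genes without a probe set of a single symbol were not analysed here. The alternatives changed the filter, scaling, probe set summary, moderation and replicate block, and left out each array.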

Additional observations from a re-analysis of the deposited data

How the results depend on the processing

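Id2 was lower under all 15 alternatives, from -0.40 to -0.14, and passed in 1, without replicate 2 of the group labelled Id2 KO (-0.40), where the count of changed Id and E protein genes was 1. That count was 0 under the other alternatives, and Tcf3, Tcf4 and Tcf12 kept their signs in all 15. Quantile normalization turned Id3 to 0.00897. With an array left out, 4 genes of small difference changed sign: Id1 ranged from -0.128 to 0.0501 (above 0 without replicate 1 of the group labelled Id2 KO), Id3 from -0.0739 to 0.0214 (above 0 without WT replicate 1 and, at 0.00972, without replicate 2 of the group labelled Id2 KO), Id4 from -0.118 to 0.0346 (above 0 without WT replicate 1) and Nfil3 from -0.0136 (without replicate 1 of the group labelled Id2 KO) to 0.364. The cause was not tested. Of the 12 ratios, 7 had groups apart with quantile normalization (5 of Id1, Id3 or Id4, all higher) and 4 to 10 with an array left out, which leaves 1 value in a group and so fewer to overlap. With an array left out, 441 to 1159 genes changed against 962 (295 to 821 higher, 136 to 338 lower), with 621 without WT replicate 2 and 441 without WT replicate 1. The network then held 11 to 16 changed genes against 17 (10 to 12 higher and 1 to 4 lower), of which 8 to 9 were targets that rose. Above the 60th percentile 48 network genes were tested, and 11 changed, 8 of them higher, with 4 targets among these. Without moderation of the spread 1 gene changed, Xist, lower, so 0 genes were higher and 0 of the network changed, while 1525 genes had an unadjusted p below 0.05. A lone array was assumed to vary like those of the other group.

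The labels do not say what a shared replicate number means, and the deviations of WT replicate 1 and Id2 KO replicate 1 from their group means correlated at -0.14 over 11963 genes, so the numbers were not taken as pairs. With the replicate block 684 genes changed, 13 of the network and 0 of the 7, and Id2 stayed at -0.27 (limma, adjusted p = 0.264). The block ended the calls of Cbfa2t3 (limma, adjusted p = 0.0536), Fzr1 (0.0660), Smad3 (0.0684) and Cdk6 (0.0528), and of none of the other 13 network genes past the threshold. With the numbers crossed, a choice made after seeing the data, 1380 genes changed, 20 of the network and 0 of the 7. Dim probe sets limit what can be said of Id1, Id3 and Id4.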
